A study of Drosophila melanogaster with 8 samples.

Results

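The 10 genes described here encode enzymes of glycolysis, and their mRNAs were followed in Drosophila S2 cells and in the exosomes these cells release. They were taken by gene symbol, by a rule that uses no measured value, and all 10 were found among the 14012 genes of the deposited table. In the order of the pathway they are Pfk (CG4001), Ald (CG6058, now Ald1), Tpi (CG2171), Gapdh1 (CG12055), Gapdh2 (CG8893), Pgk (CG3127), Pglym78 (CG1721), Eno (CG17654), PyK (CG7070) and ImpL3 (CG10160, now Ldh). All 10 passed the filter on low values described with the fits, so no member was left untested.

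The study sequenced polyadenylated RNA from 4 exosome libraries and 4 cell libraries, numbered 1 to 4 in each group. S2 is a fly line derived from embryos that resembles phagocytic blood cells, and exosomes are small vesicles that cells shed from endosomal compartments. The labels give both groups the same line and name no genotype, treatment or age, so by the labels the groups differ in the source of the RNA. Nothing in the labels says whether libraries came from separate cultures, so a p-value here measures the spread between libraries, which may be technical.

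Glycolysis splits glucose into pyruvate in the cytosol. Phosphofructokinase (Pfk) commits the sugar to the pathway, aldolase (Ald) cleaves it, and triose phosphate isomerase (Tpi) interconverts the products. Glyceraldehyde-3-phosphate dehydrogenase (Gapdh1 and Gapdh2) oxidizes the triose, after which phosphoglycerate kinase (Pgk), phosphoglycerate mutase (Pglym78), enolase (Eno) and pyruvate kinase (PyK) lead to pyruvate with the release of ATP. Lactate dehydrogenase (ImpL3) turns pyruvate into lactate and regenerates the NAD that Gapdh needs. These enzymes are abundant in most growing cells, and glycolytic proteins are often listed among exosome cargo.

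Values are FPKM, fragments scaled to transcript length and to the fragments of the library, summed over the transcripts of a gene. The libraries were not on 1 scale: the summed FPKM of all genes ran from 102736 to 1140885 in cells and from 91304 to 850262 in exosomes. Ranks and shares within a library are therefore given beside the FPKM. Depth, read from the steps of low values, was about 99300 fragments in exosome replicate 2 and 1950000 to 6090000 in the other libraries numbered 2 to 4. It is unknown for both libraries numbered 1, where no clear step was found. Exosome replicate 1 stood apart, since, of the 1578 genes whose median over the other 7 libraries reached an FPKM of 10, it listed 40.8% at exactly 0, against 9.57%, 2.53% and 0.317% in exosome replicates 2 to 4. Exosome replicates 2 to 4 entered that median and replicate 1 did not, which favours lower shares at 0 in replicates 2 to 4. In the cells all 10 markers of plasmatocytes, the phagocytic blood cells of flies, exceeded an FPKM of 1 in at least 1 library, while 1 of 12 markers of fat body, neurons, muscle and germ line did (elav, a neuronal gene). Some passed this low bar in a single library: Ppn only in cell replicate 1 (84.3 FPKM) and NimC1 only in cell replicate 2 (3.28 FPKM). Hml passed it in cell replicate 1 (81.8 FPKM) and narrowly in cell replicate 2 (1.045 FPKM). The neuronal elav passed it in cell replicates 1 and 2 (2.79 and 1.255 FPKM). In exosome replicate 4, Yp1 of fat body and up of muscle had 2.88 and 1.59 FPKM, above any cell library. The plasmatocyte markers summed to 5155 FPKM in cell replicate 1, to 27.3 to 518 in the other cell libraries and to 40.8 to 163 in exosomes. Cell replicate 1 also stood apart within this list, with SPARC at 3003 FPKM and eater at 0.339, against 7.73 to 366 and 2.43 to 29.7 in the other cell libraries.

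All 10 glycolytic mRNAs were present in exosome replicates 2, 3 and 4 and in every cell library. Together they held 0.432%, 0.712%, 0.406% and 0.379% of the summed FPKM in cell replicates 1 to 4 and 0.376%, 0.391%, 0.260% and 0.423% in exosome replicates 1 to 4. The ranges overlapped, with the highest share in cell replicate 2 and the lowest in exosome replicate 3. These shares are relative within a library and measure neither the amount of vesicles nor the mRNA per vesicle. In bulk RNA of this kind those cannot be told apart. The best-placed member ranked 80 to 158 among all genes in the exosome libraries and 97 to 127 in the cell libraries. The plot of FPKM by library shows how far apart libraries of 1 group lay.

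**Figure D1:**
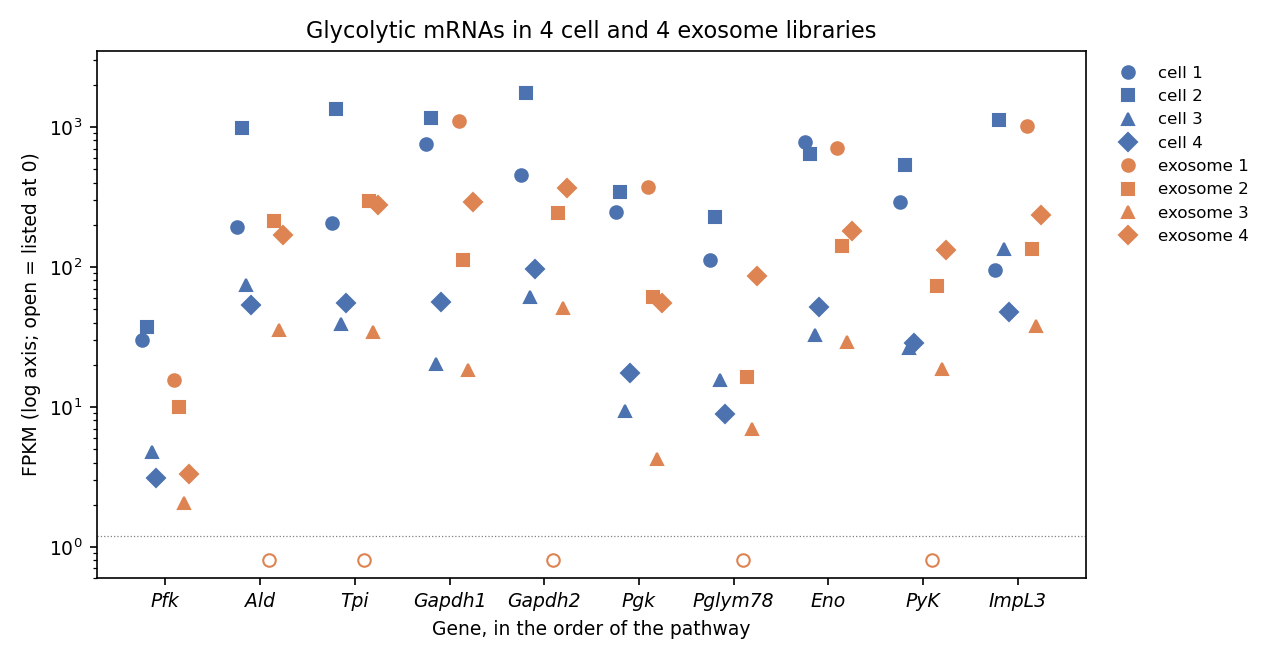
FPKM (log axis) of the 10 glycolytic genes in each library, blue for cells and orange for exosomes, with the marker shape giving the replicate number and open circles below the dotted line standing for values listed at 0. The 5 open circles all belong to exosome replicate 1, and for no gene do the 2 groups separate.

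Among the first enzymes of the pathway, Pfk stood far below Ald and Tpi in every library where these were above 0. Pfk, the committing step, had 30.1, 37.5, 4.74 and 3.10 FPKM in cell replicates 1 to 4 and 15.6, 9.93, 2.04 and 3.30 in exosome replicates 1 to 4. It was the lowest member above 0 in all 8 libraries, and it ranked 1547 to 2580 among all genes in cells and 1381 to 3904 in exosomes. The lowest exosome ranks of Pfk were in replicates 3 and 4, and the highest was in replicate 1, so the groups overlapped.

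Ald, the enzyme that cleaves the 6-carbon sugar, had 191, 976, 74.6 and 53.2 FPKM in the cell replicates and 0, 213, 35.6 and 170.0 in the exosome replicates. Tpi, which acts next, had 207, 1333, 39.3 and 55.6 FPKM in the cell replicates and 0, 296, 34.4 and 276 in the exosome replicates. Both were listed at 0 in exosome replicate 1 and lay within the range of the cells in exosome replicates 2 and 4, and below it in replicate 3. Every other member also lay below its cell range by FPKM in exosome replicate 3. By rank Tpi stood between 140 and 215 in exosome replicates 2 to 4 and between 122 and 410 in cells, and Ald between 167 and 210 against 142 and 447.

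The Gapdh step is encoded by a pair of genes whose products are closely similar, so reads could have been divided between them by the authors' processing and their separate levels are uncertain. Gapdh1 had 749, 1148, 20.2 and 55.9 FPKM in the cell replicates and 1099.6, 111, 18.5 and 289 in the exosome replicates. Gapdh2 had 455, 1758, 61.0 and 96.9 FPKM in the cell replicates and 0, 243, 50.5 and 368 in the exosome replicates. Gapdh1 was therefore the highest member in exosome replicate 1, the library in which Gapdh2 was listed at 0. Gapdh2 was the highest member in cell replicates 2 and 4 and in exosome replicates 3 and 4.

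Gapdh2 took 37.8%, 60.5%, 75.1% and 63.4% of the FPKM of the pair in cell replicates 1 to 4 and 0%, 68.6%, 73.2% and 56.0% in the exosome replicates. These percentages cancel the scale of a library. That of exosome replicate 2 rests on an estimated 12 fragments for Gapdh1, with no estimate for Gapdh2. The test used log2((Gapdh2 + 1)/(Gapdh1 + 1)), where the value at a Gapdh2 of 0 depends on the pseudocount and the scale. It was 0.56 ± 0.94 (SD, n = 4) in cells, and in the exosome replicates it was -10.1, 1.12, 1.40 and 0.34. The difference in mean was -2.37, which did not pass (two-sided exact permutation p = 0.714 over 70 splits, where 0.0286 is the smallest possible). With a pseudocount of 0.1 the difference was -3.20 at the same p, and without exosome replicate 1 it turned to 0.40 (two-sided exact permutation p = 0.629).

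In the payoff steps, Pgk, the first ATP-forming enzyme, had 248, 342, 9.28 and 17.5 FPKM in the cell replicates and 371, 60.8, 4.25 and 55.4 in the exosome replicates. Pglym78, the mutase, had 111, 228, 15.6 and 8.82 FPKM in the cell replicates and 0, 16.3, 6.96 and 86.3 in the exosome replicates. By FPKM both, like every other member, were lower in exosome replicate 3 than in every cell library. That library had the lowest summed FPKM of any, 91304. Pgk there ranked 2090, against 308 to 1296 in cells and 164 to 502 in the other exosome libraries. Pglym78 ranked 426 to 808 in cells and 336, 1249 and 1386 in exosome replicates 4, 3 and 2.

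Eno, which forms phosphoenolpyruvate, had 774, 644, 32.6 and 51.8 FPKM in the cell replicates and 701, 142, 28.8 and 179 in the exosome replicates. It was above 0 in all 8 libraries and ranked 127 to 375 in cells and 103 to 251 in exosomes. PyK, which makes pyruvate, had 293, 534, 26.5 and 28.6 FPKM in the cell replicates and 0, 73.2, 18.7 and 132 in the exosome replicates. PyK ranked 213 to 453 in cells and 245 to 412 in exosome replicates 2 to 4, where its range lay inside that of the cells.

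ImpL3, the lactate dehydrogenase gene, had 95.6, 1127, 133 and 47.6 FPKM in the cell replicates and 1009, 135, 37.6 and 235 in the exosome replicates. It varied most within the cell group: its share of the FPKM of the 10 genes was 3.03% in cell replicate 1 and 31.9% in cell replicate 3, against 10.4% to 15.9% in exosome replicates 2 to 4. Relative to PyK, the step before it, ImpL3 stood at 0.326, 2.11, 5.03 and 1.66 in the cell replicates and at 1.84, 2.01 and 1.79 in exosome replicates 2 to 4. These 3 exosome ratios lay inside the cell range. Exosome replicate 1 gave no ratio, since PyK was listed at 0, and the value of replicate 2 rests on an estimated 16 and 13 fragments.

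The make-up of the glycolytic mRNAs by step is given as shares of the summed FPKM of the 10 genes, a measure per length that cancels the scale of a library. In cells and in exosome replicates 2 to 4, in that order, the Gapdh step held 32.5% ± 8.72 (SD, n = 4) and 31.0% ± 4.98 (SD, n = 3), the largest share in 6 of these 7 libraries. Tpi held 11.4% ± 4.32 (SD, n = 4) and 17.6% ± 4.54 (SD, n = 3), and Ald held 12.2% ± 4.84 (SD, n = 4) and 13.6% ± 3.66 (SD, n = 3). Eno held 13.2% ± 7.88 (SD, n = 4) and 11.01% ± 1.09 (SD, n = 3), and PyK 7.26% ± 1.36 (SD, n = 4) and 6.95% ± 1.18 (SD, n = 3). The smallest shares were those of Pgk with 4.62% ± 2.36 (SD, n = 4) and 3.19% ± 1.44 (SD, n = 3), Pglym78 with 3.04% ± 0.741 (SD, n = 4) and 2.999% ± 1.78 (SD, n = 3), and Pfk with 0.823% ± 0.291 (SD, n = 4) and 0.603% ± 0.366 (SD, n = 3). For each of these steps the means of the groups were apart by no more than the larger SD, except Tpi, whose exosome range of 14.5% to 22.8% still overlapped the cell range of 6.55% to 16.4%.

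**Figure D2:**
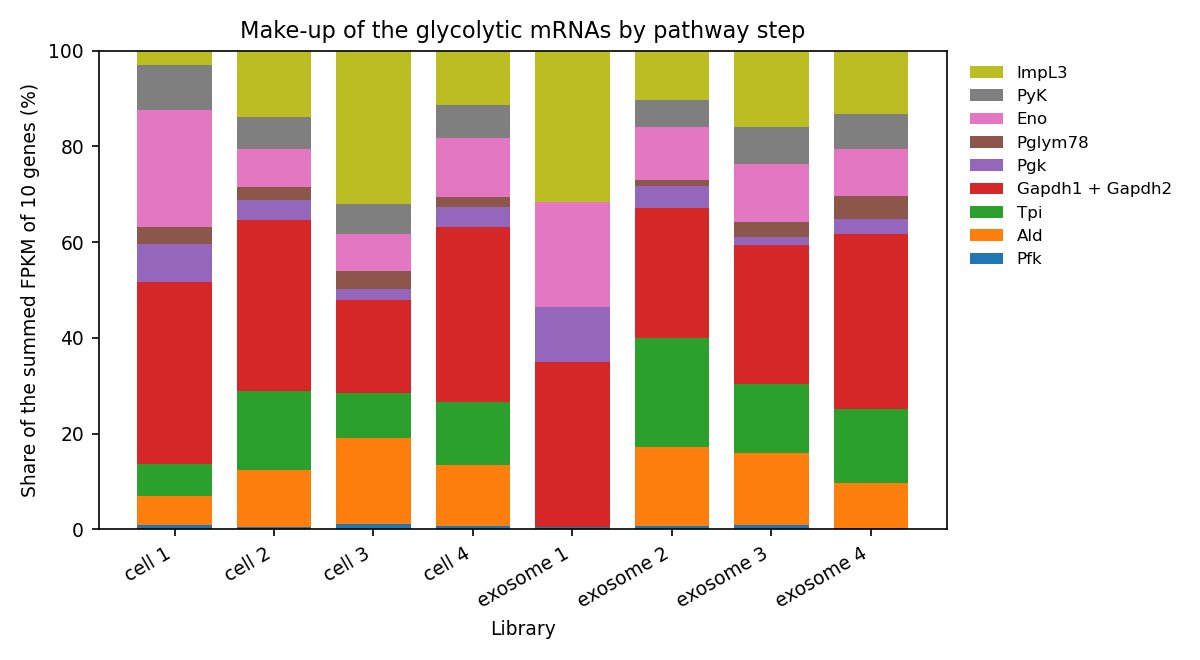
Share of the summed FPKM of the 10 glycolytic genes (vertical axis, %) taken by each pathway step in each library (horizontal axis), with the Gapdh1 and Gapdh2 genes added together. The Gapdh step takes 27.2% to 36.6% in exosome replicates 2 to 4 and 19.5% to 38.2% in cells, and exosome replicate 1 is made up of Gapdh1, ImpL3, Eno, Pgk and Pfk alone.

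Over the 7 libraries other than exosome replicate 1, the order by mean share was Gapdh2, ImpL3, Tpi, Ald, Gapdh1, Eno, PyK, Pgk, Pglym78 and Pfk. Only some neighbours in this order kept it: Eno was above PyK, PyK above Pgk and Pglym78 above Pfk in 7 of 7 libraries. Gapdh2 was above ImpL3 in 6 of 7, while ImpL3 was above Tpi in 2, Ald above Gapdh1 in 3 and Gapdh1 above Eno in 3, so ImpL3, Tpi, Ald, Gapdh1 and Eno were not separated. As a description over 10 genes that share a library, Spearman correlations of the members' levels were 0.188 to 0.964 between exosome replicates 2 to 4 and the cell libraries (median 0.806 of 12 pairs). Between cell libraries they were 0.0667 to 0.952 (median 0.612 of 6 pairs), and among exosome replicates 2 to 4 they were 0.758 to 0.855 (median 0.794 of 3 pairs). For exosome replicate 1 against the other 7 libraries they were -0.213 to 0.188.

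In exosome replicate 1, Ald, Tpi, Gapdh2, Pglym78 and PyK, 5 of 10 members, were listed at exactly 0. No member was listed at 0 in any other library. Exosome replicate 1 also listed at 0 41.6% of the 2594 genes whose median FPKM in the other libraries fell in the range of the 10 members. For the 950 genes in the range of the members other than Pfk, the share was 42.2%. Of these 950 genes, the share at 0 was 42.1% for those with 1 transcript above 0 elsewhere and 42.4% for those with more. Why genes were listed at 0 in this library was not tested, so a 0 there is given as a listing and not as the absence of the mRNA.

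Depth bears on exosome replicate 2. With its estimated depth and current transcript lengths, Tpi rested on about 27 fragments, Ald on 23, Eno on 22, ImpL3 on 16, PyK on 13, Gapdh1 on 12, Pgk on 8, Pfk on 3 and Pglym78 on 1. The low places of Pglym78 and Pfk in this library thus carry a large counting error. Gapdh2 had no estimate of fragments.

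Each gene was tested on log2(FPKM + 1), exosome against cell libraries, with limma's moderated test fitted over the 5868 genes above an FPKM of 1 in at least 4 libraries. No glycolytic gene passed: 0 of 10 members were called, with limma adjusted p from 0.708 to 0.981, beside 0.0% of all genes called lower and 0.0% called higher. At an unadjusted p under 0.05 limma again took 0 of 10 members, beside 4.62% of all genes lower and 0.0852% higher. The median log2 difference of the members was -1.42, beside -1.01 for all tested genes, and 9 of 10 lay below 0, beside 85.7% of all tested genes. These signs depend on the scaling: with each library centred on its median, 5 of 10 members and 2337 of 5868 genes lay below 0, with medians of -0.19 and 0.22. With quantile normalization 7 of 10 members and 2583 genes did, with medians of -0.83 and 0.11.

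The 5 members listed at 0 in exosome replicate 1 had the lowest fitted differences of the 10. The log2 differences of these were -2.51 (SE 1.79) for Gapdh2, -2.34 (SE 1.67) for PyK, -2.29 (SE 1.74) for Ald, -2.11 (SE 1.54) for Pglym78 and -1.94 (SE 1.75) for Tpi. Those of the other members were -0.89 (SE 1.40) for Pfk, -0.31 (SE 1.69) for Pgk, -0.18 (SE 1.84) for Eno, -0.14 (SE 1.85) for Gapdh1 and 0.20 (SE 1.85) for ImpL3. The split is a description, since the zeros enter the differences. Without exosome replicate 1 all 10 differences lay between -1.31 (Pfk) and -0.15 (Tpi), with a median of -0.90 beside -0.95 for all genes tested in that fit, and limma adjusted p ran from 0.863 to 0.992. The SE of the members in that fit was 1.45 to 1.72 on the log2 scale, larger than every one of these differences.

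**Figure D3:**
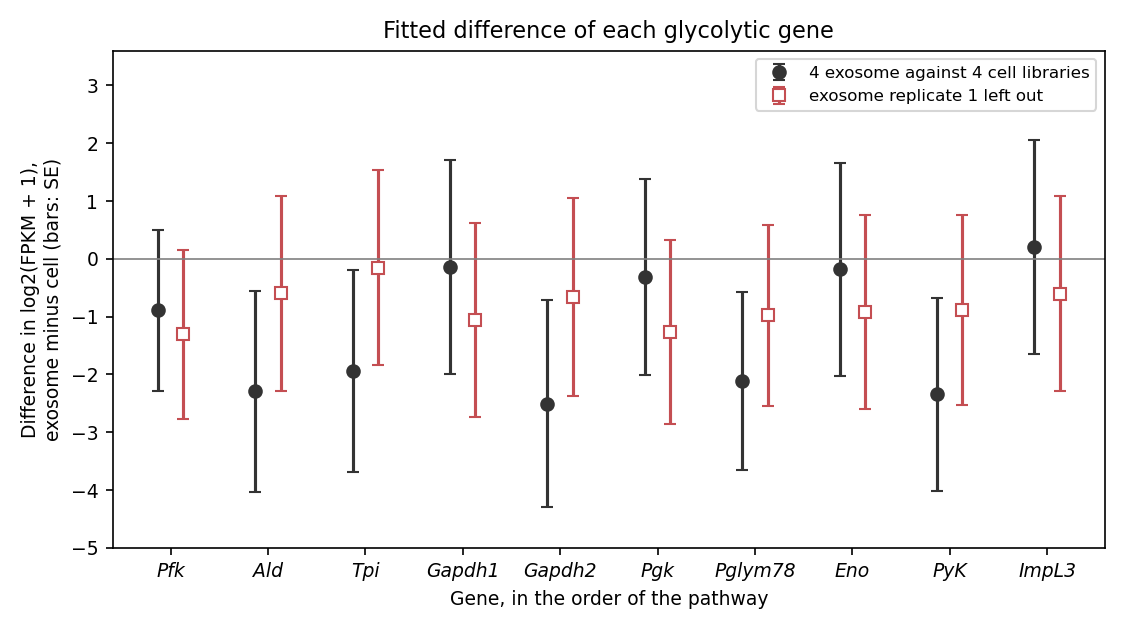
Fitted difference in log2(FPKM + 1), exosome minus cell (vertical axis), for each glycolytic gene, with bars of 1 SE, from all 8 libraries (filled) and without exosome replicate 1 (open). Ald, Tpi, Gapdh2, Pglym78 and PyK lie near -2 with all libraries and between -0.98 and -0.15 without that library.

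The 2 groups overlapped in every member. By FPKM 0 of 10 members had all exosome values below or all above the cell values, beside 0.75% of all tested genes below and 0.0341% above. By percentile rank within the library the number was also 0 of 10, beside 2.06% below and 2.51% above. With exosome replicates 2 to 4 alone it was again 0 of 10 by FPKM, beside 1.28% below and 0.0852% above, and 0 of 10 by rank, beside 3.32% below and 3.58% above. In limma's test of the percentile ranks 0 of 10 members were called, beside 0.017% of genes lower and 0.0% higher.

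The make-up of the members by deposited transcript, as assigned by the authors' processing, varied between libraries of both groups. Gapdh1, Pgk, PyK and ImpL3 each had 1 transcript above 0, and Eno had RA at 87.7% or more in every library. Gapdh2 was listed wholly as RB in cell replicate 1 and exosome replicate 2 and wholly as RA in cell replicate 3 and exosome replicate 3, while RA took 36.4% in cell replicate 2, 84.4% in cell replicate 4 and 82.9% in exosome replicate 4. For Ald, RB took 20.8%, 31.7%, 100% and 48.9% in the cell replicates and 0%, 64.4% and 44.7% in exosome replicates 2 to 4. Tpi was mostly RB, with 63.1% to 90.3% in cells and 89.9% to 100% in exosome replicates 2 to 4.

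**Figure D4:**
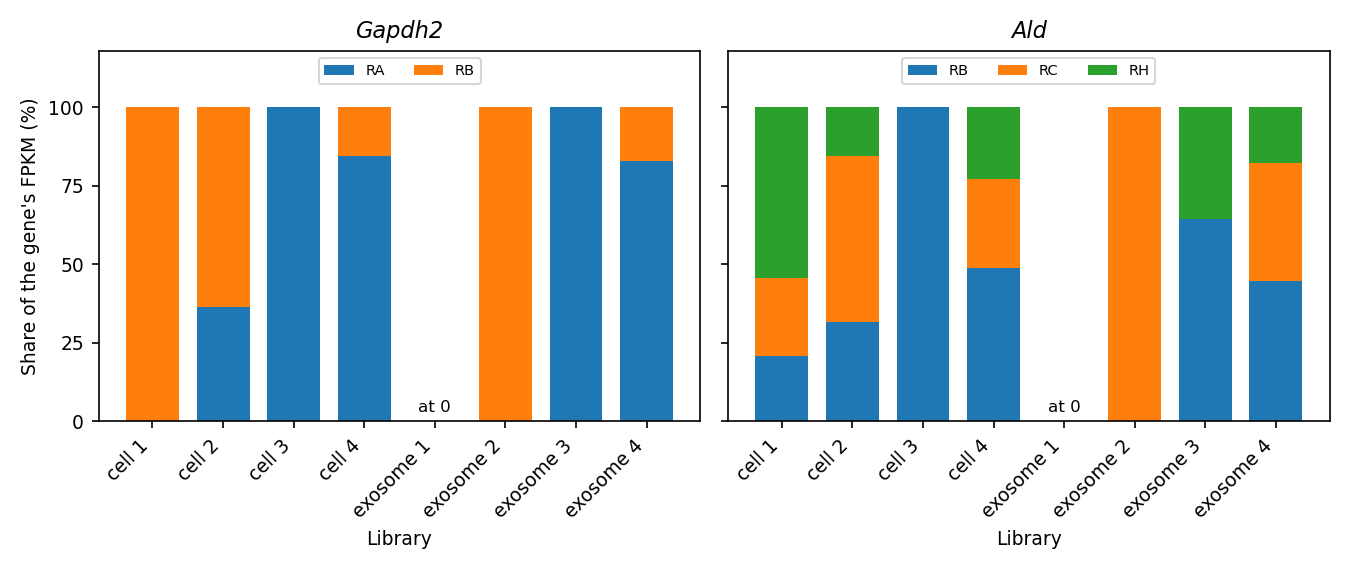
Share of the gene's FPKM (vertical axis, %) given to each deposited transcript of Gapdh2 (left) and Ald (right) in each library, with no bar where the gene was listed at 0. Both cell and exosome libraries include ones with a single transcript and ones with several.

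No other enzyme of carbon metabolism passed the test. Of 55 genes in 6 lists, 44 were tested and 0 were called in either direction by limma, with 0 also at an unadjusted p under 0.05, and 22 of the 44 were listed at 0 in exosome replicate 1. Their median log2 difference was -0.88, beside -1.01 for all tested genes. The paralogs of the members, among them Ald2, Pglym87 and further pyruvate kinase-like genes, were low: 5 of 8 were listed at 0 in all libraries, and the 8 summed to at most 7.55 FPKM in cells and 8.01 in exosomes. The only paralog tested was CG7069, with a log2 difference of 0.05 (SE 0.883).

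The 14 preparatory and gluconeogenic genes included 10 tested, with a median log2 difference of -0.66. Pgi, which feeds fructose phosphate to Pfk, had 64.8, 195, 11.1 and 13.3 FPKM in the cell replicates and 84.5, 41.4, 9.52 and 37.4 in the exosome replicates. Pgm1, which links glycogen to glycolysis, had 38.9, 191, 12.01 and 10.7 in cells and 246, 42.0, 7.65 and 41.9 in exosomes. Both were above 0 in exosome replicate 1, and their groups overlapped, while 6 of the 14 genes of the list were at 0 in that library. Of these 6, 2 were at 0 in every library, and another was above 0 only in exosome replicate 4 (0.353 FPKM).

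In the pentose phosphate pathway, the branch that makes NADPH and ribose, 7 of 7 genes were tested, with a median log2 difference of -0.51. Taldo, the transaldolase, had 227, 1473, 27.6 and 55.2 FPKM in cells and 496, 387, 15.0 and 225 in exosomes replicates 1 to 4, and CG8036, a transketolase, had 211, 304, 20.6 and 23.3 against 0, 29.3, 18.2 and 39.9. Of the 7 genes 4 were at 0 in exosome replicate 1. The 6 genes of pyruvate entry into mitochondria had a median of -1.50 and the 18 of the tricarboxylic acid cycle -1.32. Of these, 4 of 6 and 10 of 18 were listed at 0 in exosome replicate 1. The 2 genes of the glycerol phosphate shuttle, another way to regenerate cytosolic NAD, had 0 listings at 0 in that library and a median of -0.04. No list had a member called, so no difference between these branches and glycolysis is shown.

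The tested genes whose profile over the 8 libraries was most like the mean of the 10 members, each value taken less the library median, were CG15892, CG18622, CG2200, CG5377 and mRpS25, a mitochondrial ribosomal protein gene. Their Pearson r ran from 0.931 to 0.957, over 8 libraries that were unequal in scale and depth. Exosome replicate 1 listed all 5 at 0. The members' own r with that mean, which includes them, ran from 0.168 for Pfk to 0.764 for Tpi, so the mean is not the profile of any single enzyme.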

How the data were processed

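The authors deposited 1 table of genes with FPKM for each library and 1 of transposable elements, which was not used here. TopHat2, Cufflinks and DESeq2 and the build dm3 are named in the submitters' processing notes, with no versions or roles. The unit was read from the values, which are not whole and whose totals fit neither CPM nor TPM. The table's 21081 transcripts were summed to 14012 genes by CG identifier, and names came from Release 6, in which 13636 identifiers matched. Because dm3 is another build, no coordinates are given, and Release 6 transcript lengths served only to estimate depth.

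The fit used limma 3.58.1 in R 4.3.3 with a trend on log2(FPKM + 1), a pseudocount of 1 that understates changes of low genes, and no block. Benjamini-Hochberg adjustment at 0.05 was over all genes tested. The code was run on simulated data with a smaller spread than here and no difference in scale between libraries. That run therefore does not show how the fit performs on these libraries. The step of the values was sought with a length less 200 bases. Within 0.15 of a whole number lay 52.8% to 85.1% of low values in the libraries numbered 2 to 4, and 30.2% and 36.1% in those numbered 1, where an even spread gives 30%. The fit of the step used the values it is judged on. The test of 1 value per library was an exact permutation test (SciPy 1.17.1).

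The named genes are the 10 members, up to 4 per other list by mean FPKM, and the 5 genes of most similar profile. Of the marker genes, elav, Ppn, NimC1, Hml, Yp1, up, SPARC and eater, and CG5196, were named after their values were seen, and Pglym87 as a member of a list. The rule for the members uses symbols alone, but the members, lists and left-out libraries were chosen with earlier results of these data known. Alternatives were another pseudocount, 2 other filters, 4 other scalings, a replicate block and left-out libraries.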

Additional observations from a re-analysis of the deposited data

Results flagged for a closer look

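The log2 ratio of Gapdh2 to Gapdh1 in the exosome libraries had 1 library far from the others: replicate 1, at -10.1 against 0.34 to 1.40, where the gap is 0.908 of the whole range. Gapdh2 was listed at 0 there. The gap exceeds Dixon's critical value for groups of 4, a limit that chance alone passes in about 1 in 20 groups.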

How the results depend on the processing

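No member and no other gene of carbon metabolism was called by limma under any of the 18 alternatives. Over all genes the count stayed 0 except with percentile ranks, where 1 gene, CG5196, was called lower (limma adjusted p = 0.0367). The replicate numbers were not taken as pairs, since the labels do not say what a number marks. The correlation of deviations between same-numbered libraries was 0.233, 0.191, 0.452 and -0.0676 for numbers 1 to 4. Exosome replicates 1 to 3 correlated best with the cell library of their own number and exosome replicate 4 with cell replicate 2 (0.413), a hint from the data that leaves pairing unsettled. With the replicate block 0 members and 0 genes were called by limma and the Gapdh ratio difference stayed at -2.37 (exact permutation p = 0.5). This blocked permutation had 16 splits and a smallest possible p of 0.125, so it could not pass 0.05. Directions of uncalled members turned in 10 of 99 values outside the leave-one-out fits. Centring on the library median, which moves the median of all genes from -1.01 to 0.22, gave 0.33 for Pfk, 1.08 for Gapdh1, 0.91 for Pgk and 1.04 for Eno. Quantile normalization gave 0.0017 for Gapdh1 and 0.048 for Eno, and percentile ranks 0.24 points for both. ImpL3 turned to -0.86 without both libraries numbered 1 and to -0.77 without exosome replicates 1 and 2, where the Gapdh ratio difference was 0.32. With 1 library left out, Gapdh1 ran from -1.17 to 0.88, Pgk from -1.27 to 0.78, Eno from -0.97 to 0.60, ImpL3 from -0.60 to 1.13 and the Gapdh ratio difference from -3.44 to 0.40 (highest without exosome replicate 1). The cause of these turns was not tested. With the minimum FPKM at 10, Pfk had too few values to be tested. Unequal depth and the unequal scale of the libraries limit every value.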
